A study of Mus musculus with 9 samples.

Results

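A set of 9 genes that carry the Kit signal of the oocyte to mTORC1 was followed in mature mouse eggs: Kit, Pik3ca, Pdpk1, Akt1, Akt2, Tsc1, Tsc2, Mtor and Rptor. They were chosen by symbol, with earlier results of these data known, and made up 9 of the 30153 genes in the joined count tables. Poly-A RNA had been sequenced from eggs arrested at metaphase II, hand-picked by fluorescence into the groups RFP, GFP Low and GFP High, with 3 libraries each. Libraries held between 19381677 and 27746256 counts assigned to genes.

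All 3 groups shared 1 genotype, Sycp3CreERT2/+; Rosa26nT-nG/+, on a mixed genetic background, and came from females aged 4 weeks. CreERT2 is a Cre recombinase that acts in the presence of tamoxifen, and here it is expressed from the Sycp3 locus, whose own product belongs to the meiotic chromosome axis. The nT-nG reporter gives a red nuclear protein until Cre acts on it and a green one afterwards. The tamoxifen dose and its timing are not given in the sources used here. Superovulation used 5 IU of PMSG and, 48 h on, 5 IU of hCG, with collection 13 h after the hCG and removal of cumulus cells by hyaluronidase. Each library pooled eggs: 15, 15 or 16 for GFP High, 49, 52 or 57 for GFP Low, and 87, 88 or 100 for RFP. Nothing in the sources says that the pools of a group came from separate females, so the p-values measure the spread between these libraries, which may be technical. Pool size went with group, so the 2 cannot be told apart.

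Kit is the receptor tyrosine kinase on the oocyte surface, and its ligand, made by granulosa cells, recruits class I PI3K when it binds. PI3K makes a membrane lipid on which PDK1, the product of Pdpk1, phosphorylates AKT, and AKT then keeps the transcription factor FOXO3 out of the nucleus and inhibits the TSC1-TSC2 complex. That complex restrains RHEB, the activator of mTORC1, which holds the mTOR kinase and its substrate-binding subunit Raptor (Rptor). In mouse primordial follicles this chain is known for controlling when a dormant oocyte starts to grow, and loss of its brakes Tsc1 or Tsc2 in oocytes activates the pool early. Eggs at metaphase II are transcriptionally silent, so their mRNA is a store made during growth.

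Because the libraries were made from poly-A RNA, the 3′ ends of 5 of the transcripts on which the results below turn are shown. Each line is a stretch of 30 bases from the 3′ end of the gene's chosen GENCODE M21 transcript, in the GRCm38 build, written 5′ to 3′ on the transcript strand. Capitals mark the AATAAA polyadenylation signal nearest the end, after which the transcript runs on for 21 bases in Kit, 16 in Akt2, 15 in Tsc1 and 7 in Rptor. The lines of Tsc2 and Rptor reach the end of the transcript, and those of Kit, Akt2 and Tsc1 stop short of it.
Kit: ctgaagaattctAATAAAaatgtaaatata
Akt2: gctgtaatcaaaAATAAAaataaggctcca
Tsc1: taactgtgaacaAATAAAgatttattgttt
Tsc2: cggataaaggagaagtgtagcttagccctc
Rptor: acagagtgttaataaagAATAAAgccgtga

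These windows lie at chr5:75656684-75656713 on the plus strand for Kit, chr7:27640793-27640822 (plus) for Akt2, chr2:28691135-28691164 (plus) for Tsc1, chr17:24595937-24595966 (minus) for Tsc2 and chr11:119899378-119899407 (plus) for Rptor. Of the 9 genes, 8 had AATAAA within the last 40 bases, against 56.6% of the 21747 protein-coding genes with such a transcript. Tsc2 was the exception: its chosen transcript held neither AATAAA nor ATTAAA there, and the annotated gene runs on past this window to position 24595816. The cytoplasmic polyadenylation element, searched on the transcript strand as TTTTAT or TTTTAAT in the last 100 bases, was found in 0 of the 9 and in 16.3% of all these genes. The absence of a match says only that these letters are not in this window.

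All 12 oocyte markers checked, among them Zp3, Gdf9 and Mos, were present in all 9 libraries, at 10085 to 12373 CPM in sum, where CPM are counts scaled to a common library size. A list of 18 cumulus and granulosa genes, taken without Nr5a2 and Cyp19a1, which were at 101 and 6.87 CPM or more in all libraries, summed highest in RFP 2 (53.7 CPM), GFP Low 1 (36.7 CPM) and GFP High 1 (35.7 CPM). In the other 6 libraries the sum ran from 4.01 to 14.0 CPM. With Nr5a2 and Cyp19a1 kept, GFP High 1 (212 CPM) and RFP 2 (198 CPM) were still highest. GFP Low 3 (156 CPM) then came before GFP Low 1 (153 CPM). Ptx3 and Tnfaip6 of this list were both at 0 in GFP High 2 and RFP 3. Others were above 0 there: Star had 42 and 20 counts, and Ptgs2 had 9 and 15. Of the 18 genes, 12 were at 0 in GFP High 2 and 8 in RFP 3. In bulk RNA, fewer cells of a type and less RNA per cell cannot be told apart. Markers of oviduct epithelium, 5 of the 6 listed having values, summed to 3.30 to 12.3 CPM, of which Krt8 alone had 2.89 to 9.98 CPM. Those of blood and immune cells summed to 0.309 to 1.39 CPM, over Ptprc and Cd68 only, 2 of the 5 listed.

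None of the 9 genes passed the test in any comparison of the groups. In edgeR's quasi-likelihood test with Benjamini-Hochberg adjustment over all genes, 0 of 9 passed an adjusted p of 0.05 in GFP High against RFP, where 0.0135% of all 14829 genes tested did. The count was likewise 0 of 9 in GFP Low against RFP (0.0197% of 15199 genes) and 0 of 9 in GFP High against GFP Low (0% of 14785 genes). That last comparison had no call among all genes with edgeR, against 558 genes at an unadjusted p under 0.05 and 4 genes past an adjusted 0.05 with DESeq2. DESeq2 likewise called 0 of the 9 genes in each comparison. At an unadjusted p under 0.05, 0 of the 9 genes passed in any comparison, beside 4.09%, 2.62% and 3.77% of all genes in the same order. The 3 comparisons share libraries, so they are not independent of each other.

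The receptor was the most abundant of the set. Kit (ENSMUSG00000005672, chromosome 5, 75574916 to 75656722, plus strand) had 4965 to 7865 counts per library. Its level was 267, 263 and 223 CPM in replicates 1, 2 and 3 of GFP High, 263, 239 and 233 CPM in those of GFP Low, and 247, 231 and 292 CPM in those of RFP. The ranges of the 3 groups overlapped, with GFP High 3 the lowest library and RFP 3 the highest. On the log2 scale Kit differed by -0.03 (SE 0.12, adjusted p = 0.998) between GFP High and RFP and by -0.07 (SE 0.10, adjusted p = 1.00) between GFP Low and RFP. GFP High stood 0.04 (SE 0.10, adjusted p = 0.998) above GFP Low. The 95% interval for GFP High over RFP ran from 0.821-fold to 1.18-fold, so a 2-fold difference in Kit lies outside it. Kitl, which encodes the ligand and is a granulosa gene, was at 1.31 to 2.63 CPM (36 to 71 counts) in all libraries. These include GFP High 2 and RFP 3, with Ptx3 and Tnfaip6 at 0 but other genes of the cumulus list above 0.

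**Figure D1:**
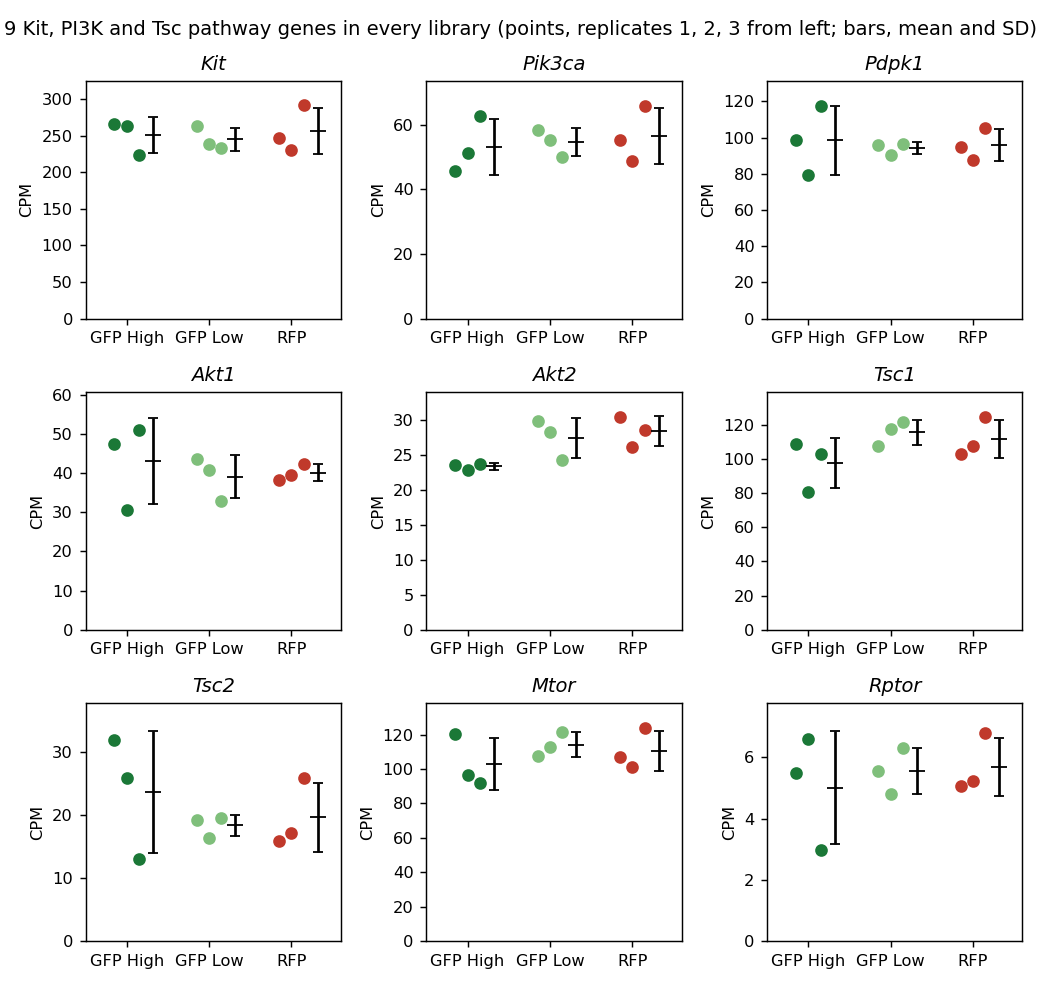
Level of each of the 9 genes (vertical axis, CPM, starting at 0) in the 9 libraries; points are replicates 1, 2 and 3 of each group from left to right, and the black mark with its bar is the mean and SD (n = 3). Akt2 is the only panel in which GFP High lies below both other groups, at 22.9 to 23.7 CPM, and Tsc2 spans 13.0 to 31.9 CPM within GFP High.

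The PI3K step was represented by Pik3ca (ENSMUSG00000027665, chromosome 3, 32397671 to 32468486, plus strand), which encodes the catalytic subunit p110 alpha. Pik3ca stood at 45.6, 51.2 and 62.7 CPM across the GFP High libraries, 58.5, 55.4 and 50.1 CPM across those of GFP Low, and 55.4, 48.7 and 65.8 CPM across those of RFP. Its groups overlapped throughout, and its log2 difference was -0.09 (SE 0.17) for GFP High against RFP, -0.05 (SE 0.13) for GFP Low against RFP and -0.04 (SE 0.16) for GFP High against GFP Low. Pdpk1 (ENSMUSG00000024122, chromosome 17, 24073680 to 24150924, minus strand), whose kinase phosphorylates AKT on its activation loop, stood at 98.7, 79.5 and 117 CPM across the GFP High libraries, 95.9, 90.3 and 96.7 CPM across those of GFP Low, and 95.002, 87.7 and 105 CPM across those of RFP. GFP High held both the lowest and the highest Pdpk1 value of the 9 libraries. The log2 differences of Pdpk1 were 0.04 (SE 0.15), -0.02 (SE 0.10) and 0.06 (SE 0.14) in the same order of comparisons.

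Among the AKT kinases, Akt2 (ENSMUSG00000004056, chromosome 7, 27591552 to 27640826, plus strand) was the only gene of the 9 whose groups separated. It stood at 23.6, 22.9 and 23.7 CPM across the GFP High libraries, 29.9, 28.3 and 24.3 CPM across those of GFP Low, and 30.5, 26.2 and 28.6 CPM across those of RFP. All 3 GFP High values were below all GFP Low and RFP values, while GFP Low and RFP overlapped. The log2 difference was -0.28 (SE 0.17, adjusted p = 0.997) between GFP High and RFP and -0.23 (SE 0.18, adjusted p = 0.998) between GFP High and GFP Low, neither past the threshold. Groups without overlap were seen in 1 of the 9 genes for GFP High against RFP, where 11.9% of all genes tested showed this. The figures were 1 of 9 against 11.5% for GFP High against GFP Low, and 0 of 9 against 7.68% for GFP Low against RFP, so the 9 genes were near the background. With 1 library left out in turn, the count ran from 1 to 2, 1 to 3 and 0 to 1 in these comparisons, beside 17.4% to 30.1%, 17.4% to 29.5% and 15.6% to 19.6% of all genes. It was 2 without GFP High 1 or GFP High 2 in the first, 3 without any of the GFP High libraries and 2 without GFP Low 1 in the second, and 1 without RFP 3 in the last.

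Akt1 (ENSMUSG00000001729, chromosome 12, 112653821 to 112674884, minus strand), the most widely expressed AKT kinase, spread more than Akt2 within GFP High and within GFP Low. It stood at 47.4, 30.5 and 51.1 CPM across the GFP High libraries, 43.5, 40.9 and 33.0 CPM across those of GFP Low, and 38.3, 39.6 and 42.4 CPM across those of RFP. GFP High again held both the lowest and the highest value. The log2 difference of Akt1 was 0.11 (SE 0.20) for GFP High against RFP, -0.04 (SE 0.13) for GFP Low against RFP and 0.14 (SE 0.21) for GFP High against GFP Low. Akt2 differed by -0.05 (SE 0.13) between GFP Low and RFP.

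Of the 2 core TSC genes, Tsc2 spread more between libraries than Tsc1. Tsc1 (ENSMUSG00000026812, chromosome 2, 28641228 to 28691167, plus strand), whose product hamartin stabilises the complex, stood at 109, 80.8 and 103 CPM across the GFP High libraries, 107, 117 and 122 CPM across those of GFP Low, and 103, 107 and 124 CPM across those of RFP. GFP High 2 was the lowest library, and the other 8 lay between 103 and 124 CPM. The log2 difference of Tsc1 was -0.24 (SE 0.13, unadjusted p = 0.0987, adjusted p = 0.998) for GFP High against GFP Low, the smallest unadjusted p of the 9 genes in any comparison. It was -0.19 (SE 0.14) for GFP High against RFP and 0.05 (SE 0.10) for GFP Low against RFP.

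Tsc2 (ENSMUSG00000002496, chromosome 17, 24595816 to 24632630, minus strand) encodes tuberin, the GTPase-activating subunit that acts on RHEB. Its level was 31.9, 25.9 and 13.0 CPM across the GFP High libraries (875, 636 and 289 counts), 19.2, 16.4 and 19.5 CPM across those of GFP Low, and 15.8, 17.2 and 25.9 CPM across those of RFP. GFP High thus held the highest and the lowest library, which differed 2.46-fold. The log2 difference was 0.27 (SE 0.33) for GFP High against RFP, -0.10 (SE 0.19) for GFP Low against RFP and 0.37 (SE 0.30) for GFP High against GFP Low. The 95% interval for the last comparison reached from 0.810-fold to 2.05-fold, so a 2-fold difference in Tsc2 lies within it. Without GFP High 1 the difference between GFP High and RFP was -0.02, and without GFP High 3 it was 0.55, with no call in either. The annotated exons of Tsc2 overlap those of Pkd1 on the opposite strand by 693 of 9620 bp. Pkd1 had 10 to 118 counts, with 29, 10 and 75 in GFP High 1, 2 and 3, and the use of strand in the counting is not given in the sources used here, so reads in the shared stretch cannot be assigned.

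Mtor (ENSMUSG00000028991, chromosome 4, 148448611 to 148557683, plus strand), the kinase itself, stood at 120, 96.2 and 92.0 CPM across the GFP High libraries, 108, 113 and 122 CPM across those of GFP Low, and 107, 101 and 124 CPM across those of RFP. Its groups overlapped, and the log2 differences were -0.10 (SE 0.14), 0.05 (SE 0.10) and -0.15 (SE 0.13) for GFP High against RFP, GFP Low against RFP and GFP High against GFP Low. Rptor (ENSMUSG00000025583, chromosome 11, 119602905 to 119899576, plus strand) was the least abundant gene of the set at 66 to 183 counts. It stood at 5.48, 6.59 and 2.97 CPM across the GFP High libraries, 5.57, 4.81 and 6.31 CPM across those of GFP Low, and 5.06, 5.22 and 6.79 CPM across those of RFP. GFP High 3 was the lowest library and the other 8 overlapped. The log2 differences of Rptor were -0.18 (SE 0.42), -0.03 (SE 0.25) and -0.15 (SE 0.42), with an interval of 0.466-fold to 1.68-fold for GFP High against RFP.

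**Figure D2:**
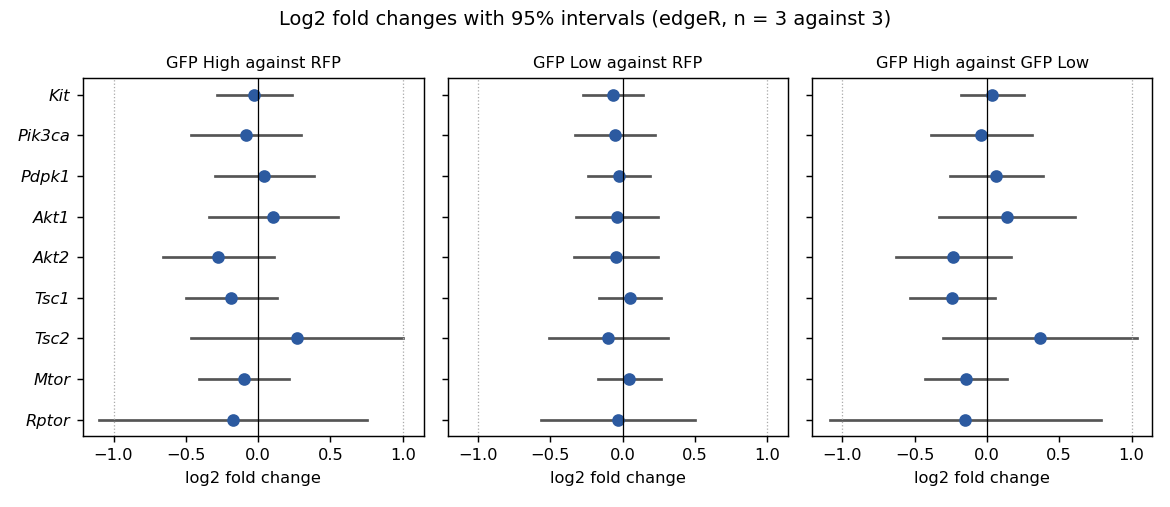
Log2 fold change of each of the 9 genes (horizontal axis) with its 95% interval in the 3 comparisons, from edgeR with 3 against 3 libraries; dotted lines mark a change of 1 on the log2 scale. All 27 intervals include 0; those of Tsc2 and Rptor are the widest, and the Kit interval for GFP High against RFP runs from -0.29 to 0.23.

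Over the 9 genes the median log2 difference was -0.09, -0.04 and -0.04 for GFP High against RFP, GFP Low against RFP and GFP High against GFP Low, beside -0.0056, -0.0041 and -0.0048 over all genes tested. A value above 0 was seen in 3, 2 and 4 of the 9 genes, beside 49.3%, 48.9% and 49.4% of all genes tested. With 1 library left out in turn, 20 of the 27 differences reversed direction in some fit. In the authors' deposited table the lowest adjusted p of the 9 genes was 0.807, for Akt2 in GFP High against RFP, with a log2 fold change of -0.26. An alternative chosen after seeing the data left out GFP High 1, GFP Low 1 and RFP 2. These were the 3 libraries highest in cumulus genes when Nr5a2 and Cyp19a1 are not counted. Of the 27 differences, 24 then kept their direction and 0 passed an adjusted p of 0.05. The 3 that turned were Pdpk1 (-0.03) and Tsc2 (-0.10) for GFP High against RFP and Pik3ca (0.11) for GFP High against GFP Low. In that setting 2, 3 and 3 of the 9 genes had groups of 2 libraries without overlap, for GFP High against RFP, GFP Low against RFP and GFP High against GFP Low, beside 37.6%, 32.6% and 36.2% of all genes.

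Levels between genes were compared on the deposited FPKM, which divides by gene length. Kit led with 27.9 ± 2.39 FPKM (SD, n = 9), followed by Mtor with 10.7 ± 1.08, Akt1 with 9.84 ± 1.57, Tsc1 with 9.05 ± 1.03 and Pdpk1 with 8.71 ± 0.963 FPKM. Pik3ca had 5.97 ± 0.705, Akt2 3.67 ± 0.393, Tsc2 2.11 ± 0.633 and Rptor 0.398 ± 0.0842 FPKM. Kit was above Mtor in 9 of 9 libraries with no overlap of their ranges, and Pdpk1 above Pik3ca, Pik3ca above Akt2 and Tsc2 above Rptor were separated in the same way. The ranges of Mtor, Akt1, Tsc1 and Pdpk1 overlapped from neighbour to neighbour, as did those of Akt2 and Tsc2. Among the protein-coding genes at 1 CPM or more, 10574 to 11211 per library, Kit lay between the 81.9 and 85.9 percentile by FPKM and Rptor between the 2.10 and 9.97 percentile.

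**Figure D3:**
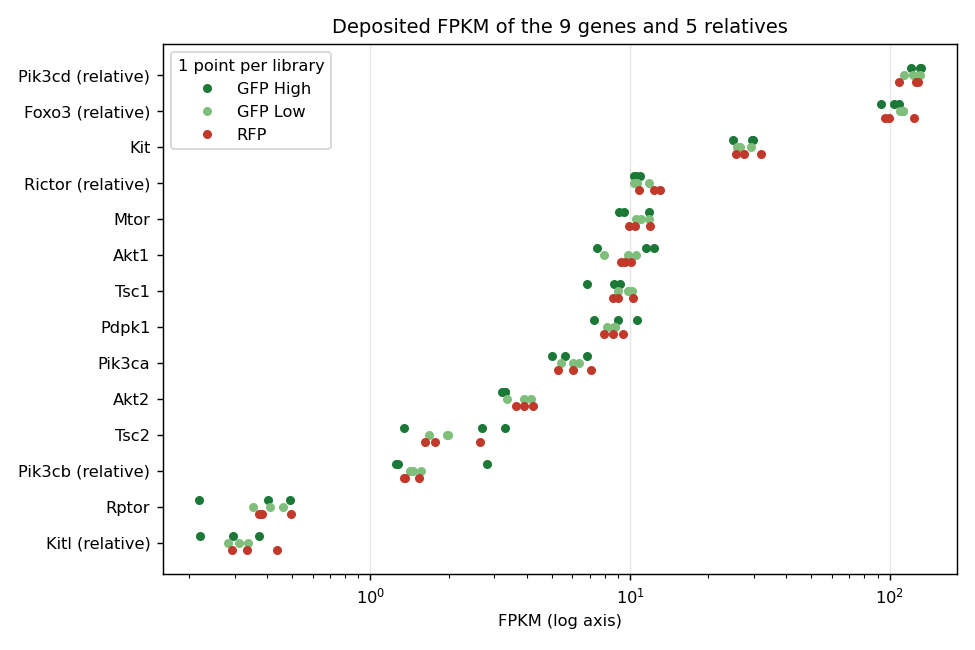
Deposited FPKM (horizontal log axis) of the 9 genes and 5 relatives, with 1 point for each library and genes ordered by mean. Kit at 24.9 to 32.01 FPKM is clear of the other 8 genes, while Pik3cd and Foxo3 lie near or above 100 FPKM and Rptor and Kitl lie below 0.5 FPKM.

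The length used matters for the order in the middle. The deposited length of Mtor (10109 bp) is close to that of its chosen transcript (8564 bp), but for Rptor it is 13471 bp against 6594 bp. Per length of the chosen transcript, an alternative added after seeing the data, Kit had 47.6, Akt1 15.0, Tsc1 14.0, Pdpk1 13.3 and Mtor 12.6 on the FPKM scale. Mtor thereby went from rank 2 to rank 5 of the 9, while Kit, Pik3ca, Akt2, Tsc2 and Rptor kept theirs.

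Pik3cd was more abundant than its relative Pik3ca, and Rictor more than Rptor, while Pik3cb was below Pik3ca. Pik3cd, which encodes p110 delta, had 124 FPKM and made up 94.2% ± 0.642 (SD, n = 9) of the summed FPKM of the class I catalytic subunits, against 4.54% ± 0.462 for Pik3ca and 1.19% ± 0.328 for Pik3cb. Rictor, the mTORC2 counterpart of Raptor, had 11.2 FPKM, so that Rptor made up 3.43% ± 0.731 of the 2 together. In the TSC complex Tsc1 made up 65.5% ± 7.54, Tbc1d7 19.4% ± 6.09 and Tsc2 15.1% ± 3.61. The Tbc1d7 share was 24.3% on average in GFP High against 16.2% in GFP Low and 17.8% in RFP, and Tbc1d7 stood at 20.2 CPM in GFP High 2 against 7.93 to 11.4 CPM in the other 8 libraries. These shares are of mRNA per deposited length and say nothing of protein.

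The relatives did not pass the test either. Foxo3, the AKT target that holds primordial follicles dormant, stood at 92.3 to 124 FPKM, with a log2 difference of -0.07 (SE 0.11) for GFP High against RFP and -0.14 (SE 0.08) for GFP High against GFP Low. Its GFP High values did not overlap those of GFP Low, which was also seen in 11.5% of all genes tested. Rictor stood at -0.20 (SE 0.10, unadjusted p = 0.0819) and Pik3cd at 0.07 (SE 0.09) for GFP High against RFP.

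Ratios within a library do not depend on library scaling, apart from the 0.1 FPKM added to both genes. The log2 ratio of Akt2 to Akt1 (FPKM plus 0.1) was -1.77, -1.19 and -1.88 across the GFP High libraries, -1.32, -1.31 and -1.21 across those of GFP Low, and -1.11, -1.37 and -1.35 across those of RFP. GFP High 1 and 3 were the lowest, while GFP High 2 lay among the other groups. The log2 ratio of Tsc1 to Tsc2 was 1.44, 1.31 and 2.603 across the GFP High libraries, 2.13, 2.47 and 2.29 across those of GFP Low, and 2.34, 2.28 and 1.92 across those of RFP, so GFP High held both the 2 lowest values and the highest. In exact two-sided permutation tests over the 1680 assignments of the libraries to 3 groups, p was 0.214 for Akt2 to Akt1 and 0.386 for Tsc1 to Tsc2, both 0.771 after adjustment over 4 ratios. For Rptor to Rictor, which ranged from -5.06 to -4.15, the exact permutation p was 0.868, and 0.868 after adjustment. The added 0.1 is not small beside Rptor, at 0.219 to 0.493 FPKM, and makes this ratio less negative than that of plain FPKM. Without GFP High 3 the adjusted p of Tsc1 to Tsc2 was 0.0857 and without GFP High 2 that of Akt2 to Akt1 was 0.143, so no library left out gave a call.

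**Figure D4:**
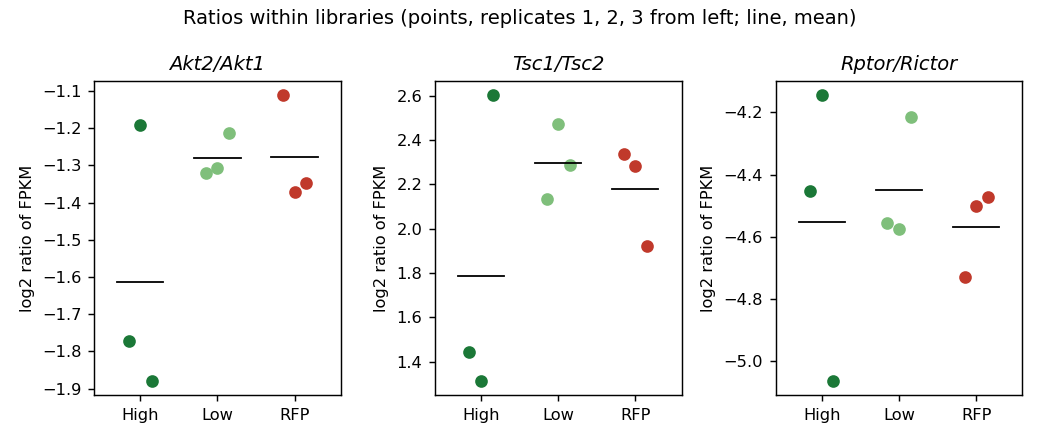
Log2 ratio of FPKM within each library (vertical axis, not starting at 0) for 3 pairs of genes; points are replicates 1, 2 and 3 of each group from left to right and lines are group means. GFP High values of Tsc1 to Tsc2 run from 1.31 to 2.603, around the values of both other groups.

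The groups differed in how closely their libraries followed each other. The coefficient of variation (CV) of CPM over the 3 libraries had a median over the 9 genes of 16.4% for GFP High, 7.81% for GFP Low and 10.7% for RFP, and 7 of the 9 genes had their largest CV in GFP High. Over the 8228 genes with a mean level within the range of the 9, 65.6% had their largest CV there and the medians were 18.8%, 10.1% and 10.8%, so the wider spread of GFP High was not particular to the 9 genes. Tsc2 was the most variable there, with 41.0% for GFP High, 9.30% for GFP Low and 27.9% for RFP, beside medians of 21.7%, 12.5% and 12.3% for genes within a factor of 2 of its level. Kit had 9.65%, 6.45% and 12.3%, with 9.44%, 5.58% and 7.32% for genes at its level. Rptor had 37.0% in GFP High, under the 44.6% of genes at its level. Akt2 was the exception in GFP High: its CV was 1.98%, under the 4.16% that counting alone gives on average, and 0.703% of 3415 genes at its level had a lower one. These CVs are descriptions from 3 libraries each, and GFP High libraries also held the fewest eggs, whose part in the spread was not tested.

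**Figure D5:**
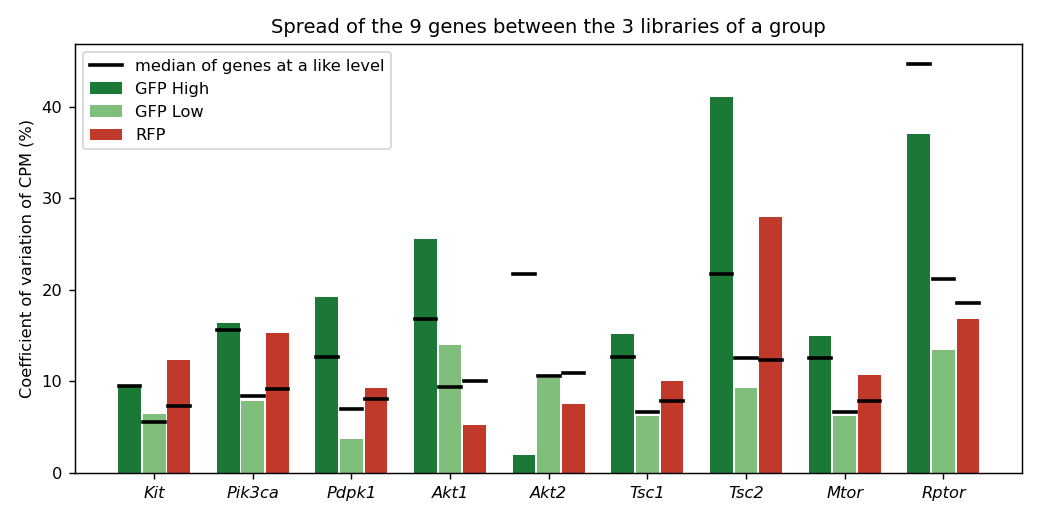
CV of CPM over the 3 libraries of each group (bars, percent, starting at 0) for the 9 genes; black lines mark the median of genes within a factor of 2 of the same level in that group. The bars of Tsc2 reach 41.0% in GFP High and 27.9% in RFP, and the GFP High bar of Akt2 is 1.98%.

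A list of 81 further genes of the pathway, in 9 roles, held 76 that passed the filter on low counts. Of these, 0 passed an adjusted p of 0.05 in any of the 3 comparisons, with edgeR or with DESeq2. At an unadjusted p under 0.05, 1 was higher and 2 were lower in GFP High than in RFP, 0 were higher and 1 was lower in GFP Low than in RFP, and 1 was higher and 2 were lower in GFP High than in GFP Low. Over all genes tested, 2.27% were higher and 1.81% lower at that level in the first comparison, 1.28% and 1.34% in the second, and 1.85% and 1.92% in the last. The median log2 difference of the list was -0.05, -0.02 and -0.06 in the 3 comparisons. Groups without overlap were seen in 5, 1 and 8 of the 76 genes, beside 11.9%, 7.68% and 11.5% of all genes tested.

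The 3 smallest p-values of the list were the same genes in both comparisons of GFP High: Nprl3, Prkaa2 and Lamtor2. Both comparisons use the same GFP High libraries, so the second is not an independent sighting. Prkaa2, a catalytic subunit of the energy sensor AMPK, stood at 7.48, 6.26 and 8.18 CPM across the GFP High libraries, 12.9, 12.6 and 13.2 CPM across those of GFP Low, and 16.4, 15.5 and 12.4 CPM across those of RFP. All GFP High values of Prkaa2 were below those of the other groups, with a log2 difference of -1.01 (SE 0.27, unadjusted p = 0.00360, adjusted p = 0.997) against RFP and -0.82 (SE 0.26, unadjusted p = 0.0110, adjusted p = 0.998) against GFP Low. Nprl3, a subunit of the GATOR1 complex that restrains mTORC1 when amino acids are scarce, stood at 1.02, 1.22 and 0.404 CPM across the GFP High libraries (28, 30 and 9 counts), 4.59, 5.04 and 5.84 CPM across those of GFP Low, and 3.77, 3.73 and 4.79 CPM across those of RFP. Its log2 difference was -2.20 (SE 0.65, unadjusted p = 0.00688, adjusted p = 0.997) against RFP and -2.54 (SE 0.62, unadjusted p = 0.00210, adjusted p = 0.998) against GFP Low.

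Lamtor2, a subunit of the lysosomal Ragulator scaffold, lay the other way. It stood at 47.6, 49.6 and 50.4 CPM across the GFP High libraries, 39.0, 37.1 and 41.9 CPM across those of GFP Low, and 39.97, 35.8 and 39.1 CPM across those of RFP, with GFP High above both other groups in all libraries. Its log2 difference was 0.37 (SE 0.14, unadjusted p = 0.0248) against RFP and 0.32 (SE 0.14, unadjusted p = 0.0401) against GFP Low, with adjusted p-values of 0.997 and 0.998. For GFP Low against RFP the smallest unadjusted p-values were 0.0432 for Fnip2, a partner of folliculin, at -0.59 (SE 0.26), 0.0616 for the GATOR1 gene Depdc5 at 0.27 (SE 0.13), and 0.0620 for the translation repressor gene Eif4ebp1 at -0.99 (SE 0.48). None of these 6 genes passed the threshold.

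Of the 81 genes, 32 had a mean of at least 10 FPKM, 29 between 1 and 10, and 20 under 1 FPKM. The most abundant gene of each role was, with its mean FPKM, the phosphatase adaptor Ptpn11 (63.7), Pik3cd (124), the lipid phosphatase Inpp5d (7.27), Foxo3 (107), the mTORC1 inhibitor Akt1s1 (22.0), the mTORC2 subunit Mapkap1 (21.9), the Rag GTPase Rraga (173), the AMPK subunit Prkab1 (19.0) and the translation inhibitor Pdcd4 (114). Of these genes, Ptpn11, Pik3cd, Foxo3, Rraga and Pdcd4 were above Kit, at 27.9 FPKM. Further genes of the list were above Kit too, among them Rragc (91.2) and Eif4b (62.2).

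The 5 genes whose log2 CPM ran most like that of Kit over the 9 libraries, among 7709 genes with a mean of at least 10 CPM, were Haus6 (Pearson r 0.914), Gxylt1 (0.913), Med14 (0.907), Fam8a1 (0.906) and Elk4 (0.902). They are the highest of many and are given as a description; the libraries share scaling factors and groups. Of the genes of the set that met this minimum, Tsc2 was most like Kit, with r 0.790, followed by Mtor with r 0.480. The r was 0.229 for Akt2, 0.194 for Pik3ca, 0.014 for Tsc1, -0.034 for Akt1 and -0.087 for Pdpk1.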

How the data were processed

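Raw counts per gene of the 3 deposited tables, 1 for each pair of groups, were joined by gene identifier. A library's count was taken from whichever of its tables lists the gene, and 178 of the 30153 genes with no value for a library in any table were set to 0 there. The counts of a library were identical between tables, and 0 columns of per-sample values were left unmapped. Beside the raw counts, the tables hold FPKM made by the authors, normalised values of the unit signal that were not used here, and the authors' log2 fold changes and p-values. The submitters' processing notes name fastp, HISAT2 2.0.5, featureCounts 1.5.0-p3, DESeq2 1.20.0 and the build mm10; their order, settings and use of strand are not given in the sources used here. Gene positions are those of the deposited tables, and match GENCODE M21.

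Each pair of groups was fitted on its own 6 libraries with edgeR 4.0.16 (filterByExpr, TMM, glmQLFit and glmQLFTest), with Benjamini-Hochberg adjustment over all genes tested and a threshold of 0.05. The SE is the log2 fold change divided by the root of the F statistic, and 95% intervals use the t distribution. All 9 genes passed the filter on low counts. The script was tested on simulated data. CPM use TMM library sizes over the 9 libraries. Ratios used FPKM plus 0.1 and an exact permutation test, adjusted over 4 ratios. Values of 2 relatives, and the ratio of 1 of them, are not reported here. The precision of each value depends on the gene's own counts, and the intervals also cover the spread between libraries.

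Alternatives were DESeq2 1.42.0, its size factors, no filter, all 9 libraries in 1 fit, the replicate number as a block and leaving out each library. The 9 genes, the pathway list, the marker lists and the tests were chosen with earlier results of these data known. Named beside the 9 genes were those of the list with the 3 smallest p-values in a comparison, the most abundant of each role, the relatives Rictor, Kitl, Pik3cb and Foxo3, and the 5 genes most like Kit. Tbc1d7, Pkd1 and Pik3cd where it is compared with Pik3ca were added after their values were seen.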

Additional observations from a re-analysis of the deposited data

How the results depend on the processing

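Every group has 3 libraries, and 0 of the 9 genes passed in any alternative run, with 0.444 as the lowest adjusted p (Tsc2, GFP High against GFP Low, edgeR without GFP High replicate 3). The 5 settings that keep all libraries (edgeR with DESeq2 size factors, no filter on low counts, DESeq2, all 9 libraries in 1 fit, the replicate block) left the direction of all 27 differences of the 9 genes as it was. Depth limits Rptor most, at 66 to 183 counts.

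Counts of genes past an adjusted p of 0.05 did move. For GFP High against RFP the count of 2 became 16 with no filter and 12 with DESeq2. For GFP Low against RFP the count of 3 became 34 and 10, and for GFP High against GFP Low the count of 0 became 16 and 4. The cause was not tested. Leaving out each library gave 0 to 2, 2 to 3 and 0 to 1 genes in these comparisons; it was 0 in GFP High against RFP without GFP High replicate 1 or 3 or RFP replicate 2 or 3, and 1 in GFP High against GFP Low without GFP High replicate 3. Of the 9 genes, those with groups that do not overlap numbered 1 to 2, 0 to 1 and 1 to 3 with 1 library left out. The shares over all genes were 17.4% to 30.1%, 15.6% to 19.6% and 17.4% to 29.5%. Without the 3 libraries highest in cumulus genes (Nr5a2 and Cyp19a1 not counted), chosen after seeing the data, 0 genes passed in GFP High against RFP. Groups that do not overlap were then seen in 2, 3 and 3 of the 9 genes, beside 37.6%, 32.6% and 36.2% of all genes. Pdpk1 (-0.026) and Tsc2 (-0.10) against RFP and Pik3ca (0.11) against GFP Low reversed in GFP High.

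With the replicate number as a block, the count for GFP High against RFP was 4 in place of 2, and it changed no call of the 9 genes or the ratios. The numbers were not taken to pair the libraries: same-numbered libraries had deviations correlated at -0.168 to 0.0767 (GFP High and RFP), -0.152 to 0.152 (GFP Low and RFP) and -0.135 to 0.151 (GFP High and GFP Low) over 7710 genes.

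Without 1 library, 32 of 162 differences of the 9 genes, in 20 of the 27 results, reversed direction, none with a call in either direction. For GFP High against RFP these log2 differences ran, over the libraries left out, from -0.098 to 0.070 for Kit, from -0.23 to 0.028 for Pik3ca, from -0.11 to 0.17 for Pdpk1, from -0.045 to 0.30 for Akt1, from -0.018 to 0.55 for Tsc2 and from -0.43 to 0.081 for Rptor. For GFP Low against RFP they ran from -0.13 to 0.035 for Kit, from -0.15 to 0.069 for Pik3ca, from -0.085 to 0.045 for Pdpk1, from -0.12 to 0.071 for Akt1, from -0.11 to 0.033 for Akt2, from -0.0058 to 0.13 for Tsc1, from -0.24 to 0.15 for Tsc2, from -0.011 to 0.13 for Mtor and from -0.14 to 0.11 for Rptor. For GFP High against GFP Low they ran from -0.015 to 0.11 for Kit, from -0.18 to 0.054 for Pik3ca, from -0.084 to 0.19 for Pdpk1, from -0.0071 to 0.33 for Akt1 and from -0.40 to 0.11 for Rptor. Adjusted p-values of the ratios ran from 0.143 to 0.950 (Akt2 to Akt1), 0.0857 to 0.950 (Tsc1 to Tsc2) and 0.705 to 0.996 (Rptor to Rictor) in exact permutation tests without 1 library.

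Levels per length of the chosen transcript, added after seeing the data, were 47.6 for Kit, 13.3 for Pdpk1, 15.0 for Akt1, 5.76 for Akt2, 14.0 for Tsc1, 3.38 for Tsc2, 12.6 for Mtor and 0.814 for Rptor on the FPKM scale, since the deposited lengths are longer; Pik3ca moved by less than its SD.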

Other observations

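Some of the other pathway genes named here were uneven between libraries. Pik3cb, which encodes p110 beta, stood at 20.4 CPM in GFP High 3 (453 counts) and at 9.09 to 11.4 CPM in the other 8 libraries. Fnip2 stood at 18.8 CPM in GFP High 2 (462 counts), against 3.76 and 5.21 CPM in GFP High 1 and 3, 4.59 to 8.90 CPM in GFP Low and 8.42 to 12.7 CPM in RFP. Eif4ebp1, whose product binds the cap-binding protein eIF4E, ran from 0.475 CPM in GFP High 1 to 4.39 CPM in RFP 2, with 3.87 CPM in GFP High 3. These uneven values were picked after they were seen, and the unevenness itself was not tested.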
